A study of Mus musculus with 18 samples.

Results

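Broad H3K36me2 domains are stretches of at least 100 kb that the submitters' peak list for untreated mouse embryonic stem cells reports as 1 uninterrupted H3K36me2 peak. Of 40833 peaks in that list, 40638 lie on chromosomes 1 to 19, and 1016 of these reach 100 kb. They were chosen by the measured H3K36me2 signal of the 2 untreated libraries, from which the peaks were called. The study profiled histone H3 methylation by chromatin immunoprecipitation and sequencing (ChIP-seq) in E14 cells, an established mouse embryonic stem cell line kept in medium with LIF and inhibitors of GSK3 and MEK that also carried isotope-labelled amino acids. Untreated cells gave 2 libraries each for H3K27me1, H3K27me2, H3K27me3, H3K36me2 and H3K36me3. Cells treated for 7 days with DMSO or with 10 µM EPZ-6438 gave 2 H3K36me2 and 2 H3K27me3 libraries per arm, with Drosophila S2 chromatin added at 0.05% of total chromatin. EPZ-6438 blocks the catalytic activity of EZH2. All groups come from 1 cell line, the labels do not say whether the replicates are separate cultures, and the p-values below therefore measure only the spread between these libraries. No input library and no expression values were used here, so neither copy number nor cell identity was checked.

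H3K36me2 is laid down mainly by the NSD methyltransferases and covers wide stretches of genes and intergenic chromatin, whereas SETD2, which travels with elongating RNA polymerase II, adds H3K36me3 along transcribed gene bodies. PRC2, with EZH2 or EZH1 as its catalytic subunit, methylates H3K27. Methylation of H3K36 on a histone tail hinders PRC2 on that same tail, and CpG-rich gene starts are commonly kept free of H3K36me2, in part by the CXXC-domain demethylases KDM2A and KDM2B.

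The domains are not even along their length: gene starts inside them differed in H3K36me2 with their CpG content. The 4 promoters below span the range, 2 CpG-rich and 2 CpG-poor, with the lowest and the highest DMSO H3K36me2 relative to their own domain in each class. Each is the RefSeq sequence from 250 bases before to 50 bases after the annotated gene start, GRCm38.p6, written 5′ to 3′ along the gene, with every CG dinucleotide in capitals. All 4 genes are on the minus strand, and each start lies more than 50 kb inside a domain.
Hdac4 (CpG-rich, lowest), chr1:92180292-92180591: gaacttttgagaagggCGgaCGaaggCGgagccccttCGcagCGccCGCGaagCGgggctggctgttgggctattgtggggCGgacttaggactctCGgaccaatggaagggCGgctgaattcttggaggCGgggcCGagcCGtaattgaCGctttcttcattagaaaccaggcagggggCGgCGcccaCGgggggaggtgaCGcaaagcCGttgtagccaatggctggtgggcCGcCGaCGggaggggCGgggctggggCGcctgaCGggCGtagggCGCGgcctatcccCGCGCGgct
Pear1 (CpG-rich, highest), chr3:87768904-87769203: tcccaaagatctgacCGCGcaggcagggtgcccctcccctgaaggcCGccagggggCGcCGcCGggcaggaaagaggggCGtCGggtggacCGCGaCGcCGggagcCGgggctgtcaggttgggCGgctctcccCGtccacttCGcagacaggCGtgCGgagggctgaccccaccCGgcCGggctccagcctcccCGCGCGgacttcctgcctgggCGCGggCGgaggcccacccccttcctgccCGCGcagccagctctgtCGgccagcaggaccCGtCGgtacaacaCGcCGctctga
Tpcn2 (CpG-poor, lowest), chr7:145283962-145284261: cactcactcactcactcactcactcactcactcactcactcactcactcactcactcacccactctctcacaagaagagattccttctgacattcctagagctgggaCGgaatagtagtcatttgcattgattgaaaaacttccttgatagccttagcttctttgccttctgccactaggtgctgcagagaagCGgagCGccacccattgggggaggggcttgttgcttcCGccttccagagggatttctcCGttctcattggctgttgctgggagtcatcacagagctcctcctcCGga
Serpinf1 (CpG-poor, highest), chr11:75422574-75422873: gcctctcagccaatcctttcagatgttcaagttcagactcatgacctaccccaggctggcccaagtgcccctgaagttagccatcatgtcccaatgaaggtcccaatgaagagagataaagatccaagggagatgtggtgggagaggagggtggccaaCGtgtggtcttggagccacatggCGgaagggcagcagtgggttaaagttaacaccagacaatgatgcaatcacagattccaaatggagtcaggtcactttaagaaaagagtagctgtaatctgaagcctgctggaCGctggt
The Hdac4 window holds 32 CG dinucleotides and the Pear1 window 33, against 6 for Tpcn2 and 3 for Serpinf1. Of all 31396 RefSeq promoter windows of this length, 94.8% hold at least 1 CG, 17.4% hold 26 or more and 51.0% hold 7 or fewer. The H3K36me2 values at these starts are given with the gene starts below.

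The 1016 domains are 2.50% of the H3K36me2 peaks on chromosomes 1 to 19 and hold 160 Mb, which is 20.3% of the length of those peaks and 6.49% of the 19 chromosomes. Their median length was 133.5 kb, with quartiles at 113.5 and 174 kb, against a median of 9.5 kb for the 39622 shorter peaks. There were 170 domains of 200 kb or more and 48 of 300 kb or more. Chromosome 11 carried the most, with 101 domains over 13.6% of its length, followed by chromosome 5 with 91 domains over 10.5%, whereas chromosome 14 had 21 domains over 2.58% of its length. At the threshold, the 14 domains of exactly 100 kb had untreated H3K36me2 from 1.98 to 3.09 times the library mean, with a median of 2.39. Just outside, the 11 peaks of 99.5 kb, among them those at Clasp1, Marco and Fndc3b, had 2.02 to 2.92 with a median of 2.45, so the levels on both sides overlapped.

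Levels are given throughout as the mean number of reads per 1 kb window in a region divided by the mean over all windows of chromosomes 1 to 19 of the same library, so that a value of 1 is the library mean. In the 2 untreated H3K36me2 libraries, the mark that chose the domains, the domains had 2.87 and 2.55 times the library mean, which is given as description only. H3K36me3 was at 2.35 and 2.50 times the library mean and H3K27me2 at 2.04 and 1.80. H3K27me3 was at 1.95 and 1.81, and H3K27me1 at 1.53 and 1.39. In both libraries of a mark, 1015 of the 1016 domains lay above the library mean for H3K27me2, 1006 for H3K36me3, 906 for H3K27me1 and 742 for H3K27me3.

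All 5 marks exceeded the library mean over the pooled domains, but they differed in how evenly they were spread among them. H3K27me2 was the most uniform of the 4 marks that the choice of domains did not use. Averaged over its 2 libraries, the domain at the 10th percentile had 1.57 and the one at the 90th percentile 2.24 times the library mean, a 1.43-fold range. The same range was 1.81-fold for H3K27me1, 2.77-fold for H3K36me3 and 5.60-fold for H3K27me3, whose percentiles stood at 0.603 and 3.38. The ranks were shared between replicates, with Spearman coefficients across the 1016 domains of 0.90 for H3K27me1, 0.92 for H3K27me2, 0.98 for H3K27me3 and 0.99 for H3K36me3. Across domains, untreated H3K27me1 had a Spearman coefficient of 0.67 with H3K36me3 and of -0.57 with H3K27me3, and H3K27me3 one of -0.20 with H3K36me3. The points are the same 1016 regions, measured in libraries with no input correction, and the coefficients are a description.

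**Figure D1:**
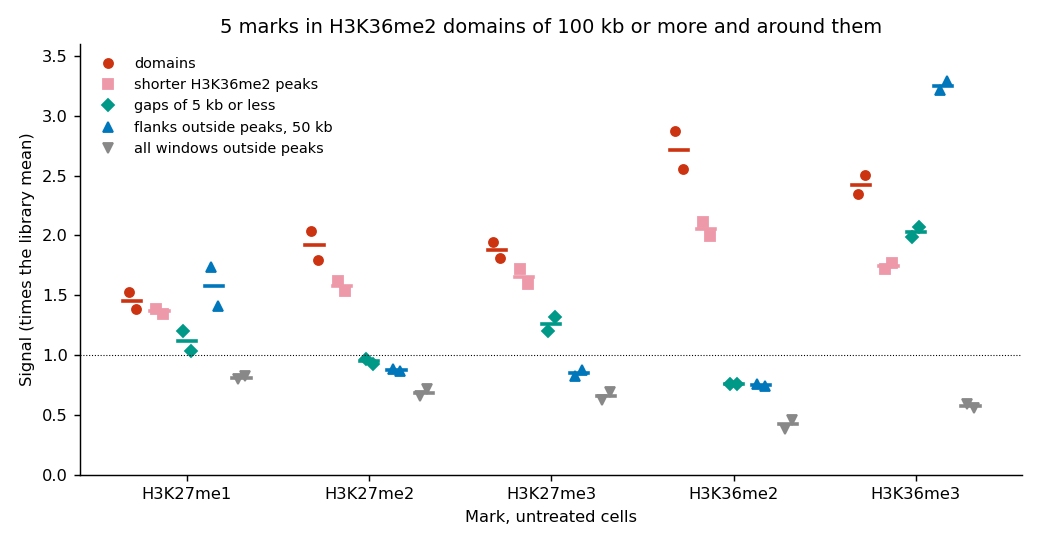
Signal of the 5 untreated marks (y axis, times the library mean) in the domains, shorter H3K36me2 peaks, gaps of 5 kb or less beside a domain, flank windows within 50 kb outside H3K36me2 peaks, and all windows outside those peaks; points are the 2 libraries and bars their mean. H3K36me3 was higher in the flank windows (3.21 and 3.29) than in the domains (2.35 and 2.50), whereas H3K27me2, H3K27me3 and H3K36me2 were lower there.

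Single domains show how different the mixture of marks can be under a common H3K36me2 domain. The domain with the highest H3K27me1, H3K27me2 and H3K36me3 is the same one, at chr17:30667501-30895000, and 91.5% of its length is the gene Dnah8, which encodes a dynein heavy chain of the sperm axoneme. It had 4.14 times the library mean of H3K27me1, 3.42 of H3K27me2 and 9.11 of H3K36me3, with 1.26 of H3K27me3. At the other end, the domain at chr6:94057001-94159000 lies wholly inside Magi1, a scaffold gene of cell junctions, and had the lowest H3K36me3, at 0.906 times the library mean. The highest H3K27me3, 7.54 times the library mean, was in the domain at chr17:27355001-27461000, which holds Grm4, a metabotropic glutamate receptor gene. H3K36me2 was high there too, at 3.96. The lowest H3K27me3, 0.168, was in the domain at chr7:112681501-112841500, which lies wholly inside Tead1, a transcription factor gene of the Hippo pathway. H3K36me2 was 2.18 and H3K36me3 3.17 times the library mean over this Tead1 stretch. The lowest H3K27me1 (0.774) was at Cldn10 and Dzip1 on chromosome 14 and the lowest H3K27me2 (0.917) at Ncoa3 on chromosome 2.

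The submitters' peak lists for the other marks come from the same untreated libraries and describe the same overlap as cover by peaks. H3K27me2 peaks covered 86.8% of domain length, against 28.7% of chromosomes 1 to 19, and covered at least 50% of the length of 1010 domains. H3K27me1 peaks covered 48.2%, against 20.9%. H3K27me3 peaks covered 45.5%, against 22.3%, and were spread unevenly: 432 domains lay at least 50% inside H3K27me3 peaks, 584 less than that, and 39 held none. In shorter H3K36me2 peaks the corresponding shares were 70.2%, 38.0% and 40.7%. The H3K36me3 peak list was not used here.

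Most domains ended close to another H3K36me2 peak. The gap to the next H3K36me2 peak was 3.5 kb in the median, and 62.3% of 2031 gaps, or 1266, were 5 kb or less. These are counted from each side of each domain, so that a gap between 2 domains counts from both. Of the windows within 50 kb of a domain, 71.8% lay in other H3K36me2 peaks, which left a median of 24 flank windows outside peaks per domain, with a range from 2 to 100. In those flank windows H3K36me2 was at 0.756 and 0.746 times the library mean, again set by the peak calls. H3K27me2 was at 0.886 and 0.868 and H3K27me3 at 0.823 and 0.873. Both thus stood below the library mean in flank windows outside H3K36me2 peaks and above it inside the domains. Over all windows 20 kb outside an edge, other H3K36me2 peaks included, they did not fall below it. H3K27me2 was at 1.62 and 1.48 there and H3K27me3 at 1.63 and 1.52. In the flank windows outside peaks H3K36me3 showed the opposite order, with 3.21 and 3.29 against 2.35 and 2.50 inside. H3K27me1 was at 1.74 and 1.41 in the flanks, which overlaps its 1.53 and 1.39 inside. Per domain, H3K36me3 exceeded its flank in both libraries in 485 of 1016 domains, and the median ratio of domain to flank was -0.05 on the log2 scale, against -0.42 ± 0.04 (SD, n = 2) for the pooled windows.

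The narrow gaps were examined separately, a comparison added after the data were seen. Of the 1266 gaps of at most 5 kb, 69 lay between 2 domains, and counting those once left 1197 gaps, with 2623 whole windows. H3K36me2 in them was 0.359 and 0.383 of the domain level in DMSO and 0.395 and 0.412 in inhibitor-treated cells. H3K36me3 was at 1.99 and 2.07 times the library mean, 0.847 and 0.828 of its domain level, and H3K27me2 at 0.971 and 0.928. As shares of their own domain level, untreated H3K27me1 was at 0.787 and 0.746, H3K27me2 at 0.476 and 0.516 and H3K27me3 at 0.616 and 0.729. A listed protein-coding gene start lay in 3.24% of gap windows, against 1.04% of domain windows and 0.668% of all windows, and 57.5% of gap windows lay in protein-coding gene bodies. Profiles across the 2032 domain edges show the dip directly. H3K36me2 in DMSO was at 0.926 and 1.02 times the library mean 1 kb outside the edge, 1.70 and 1.77 in the first window inside, and 2.52 in both libraries 20 kb inside. H3K36me3 reached 3.05 and 3.26 at 4 kb outside and dropped to 2.39 and 2.49 at 1 kb outside. It was at 2.84 and 3.04 in the first window inside and at 2.24 and 2.39 at 20 kb inside. The H3K27 marks were also lower 1 kb outside than in the first window inside. H3K27me1 was at 1.36 and 1.12 against 1.77 and 1.48, and H3K27me2 at 0.956 and 0.921 against 1.51 and 1.37. H3K27me3 was at 1.02 and 1.13 against 1.57 and 1.56. The dip was thus shared by all 5 untreated marks, and its cause was not tested. The outer 10 kb of the domains had 0.854 and 0.861 of the inner H3K36me2 level in DMSO, so the level kept climbing beyond the edge itself.

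**Figure D2:**
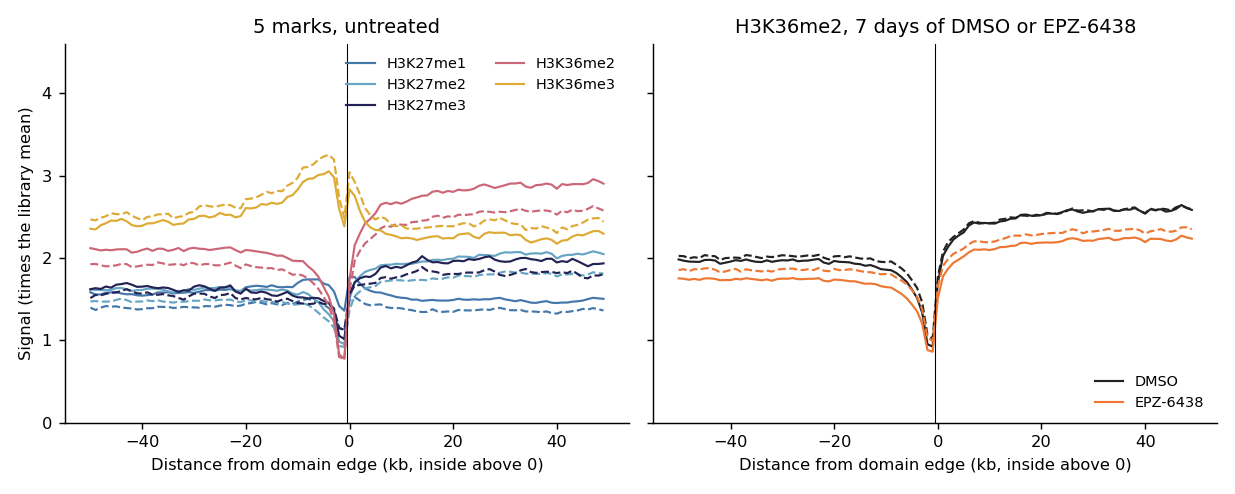
Mean signal (y axis, times the library mean) by distance from the domain edge (x axis, kb, positive inside), over both edges of all 1016 domains; solid and dashed lines are replicates 1 and 2, the left panel shows the 5 untreated marks and the right panel H3K36me2 after DMSO or EPZ-6438. Windows outside include neighbouring H3K36me2 peaks, so H3K36me2 dips just outside the edge and returns towards 2 times the library mean at 20 kb. H3K36me3 is highest at about 4 kb outside, and all 5 untreated marks are lower 1 kb outside than in the first window inside.

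Protein-coding gene bodies of the RefSeq annotation (GRCm38.p6) covered 60.3% of domain length, against 51.5% of shorter H3K36me2 peaks and 40.0% of chromosomes 1 to 19. The share was higher beside the domains: 68.7% of flank windows outside H3K36me2 peaks lay in such bodies, against 60.3% of domain windows. The part of this share in the higher H3K36me3 of the flanks was not tested. A domain overlapped a median of 2 protein-coding genes and at most 21. There were 291 domains with a single such gene, 139 in which 1 gene filled at least 90% of the length, and 82 with no protein-coding gene. Gene starts were taken from a table without chromosome 18, which leaves 997 domains, and which lists a start for 16457 of 20665 protein-coding genes. Of these domains, 328 (32.9%) contained no listed protein-coding gene start, and some of them may hold a start that the table lacks. The domains had 10.7 listed starts per Mb, against 11.5 in shorter peaks and 6.94 on the chromosomes as a whole. Of 1994 domain edges, 362 (18.2%) were within 5 kb of a listed gene start and 359 within 5 kb of a gene end, against 9.92% and 8.85% of the edges of shorter peaks. These shares describe the annotation, and neighbouring edges can share a gene.

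Of 20665 protein-coding genes on chromosomes 1 to 19, 2176 (10.5%) had at least 50% of their body in domains and 1679 lay wholly inside. The share was 9.74% for genes under 20 kb, 11.1% from 20 to 50 kb, 12.0% from 50 to 100 kb, 14.8% from 100 to 200 kb and 6.98% for genes of 200 kb or more. Inside domains, H3K36me3 in windows of protein-coding bodies was 1.92 and 2.05 times that in windows of no annotated gene. H3K36me2 was nearly level across the same windows, with ratios of 0.943 and 0.983 in DMSO and 0.927 and 0.988 with inhibitor. The untreated H3K27me2 ratios were 1.09 and 1.06, and those of H3K27me1 were 1.15 and 1.11.

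The longest domain, 615 kb at chr11:119705501-120320500, overlaps 9 protein-coding genes, with the longest stretches in Rptor, which encodes the raptor subunit of mTORC1, and in Baiap2, Bahcc1 and Slc38a10. Its untreated H3K36me3 was 4.55 and its H3K27me3 1.45 times the library mean. The next, 602.5 kb at chr8:117152501-117755000, holds Cmip, the phospholipase gene Plcg2 and Hsd17b2, and had H3K36me3 of 2.69 and H3K27me3 of 2.21. A domain of 584 kb at chr4:138441001-139025000 overlaps 13 genes, led by Vwa5b1, Pla2g5 and Tmco4. One of 496 kb at chr17:45650001-46146000 includes Vegfa, the vascular growth factor gene, with Tmem63b, Rsph9 and Mrps18a. A 483 kb domain at chr9:61426501-61909500 overlaps no protein-coding gene at all. Its H3K36me2 was 2.99 times the library mean with H3K36me3 of 1.31, H3K27me2 of 1.95 and H3K27me3 of 2.01. Others of the 10 longest hold Sipa1l2 and Disc1 on chromosome 8, Igsf3 and the lymphocyte receptor gene Cd2 on chromosome 3, and Clec16a and Litaf on chromosome 16. They also include the hair-cell cadherin gene Cdh23 on chromosome 10. H3K27me2 peaks covered between 88.6% and 98.6% of each of these 10 domains, and H3K27me3 peaks between 31.8% and 71.6%.

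Gene lists chosen with earlier results in view were read against the 10.5% of all protein-coding genes with at least 50% of their body in domains. This share is summed over all domains that a body overlaps. Among 12 H3K36 methyltransferases and demethylases there were 2, the demethylase genes Kdm2b (87.5% of its body) and Kdm4b (99.3%). Among 12 genes whose products bind methylated H3K36 there were 2, the de novo DNA methyltransferase genes Dnmt3a (94.3%) and Dnmt3b (56.3%). The matched PRC2 genes counted 11, of which Ezh1 lay wholly in a domain. Of 14 naive pluripotency genes only Esrrb (68.5%) qualified, of 25 chromatin remodellers and co-activators Chd7 (69.9%) and Arid1b (72.3%), of 13 large ubiquitin ligases Hectd4 (53.4%) and of 16 ribosomal protein genes Rpl19 (64.8%). None of 18 developmental regulators, 16 DNA damage genes or 14 very long neuronal genes qualified. The neuronal genes had a median length of 1627.5 kb, and the longest domain had 615 kb. Because the share is summed over all domains that a body overlaps, length alone does not exclude such a gene. The Arid1b body of 353 kb, for example, qualified although its listed domain is 142.5 kb. No developmental regulator or neuronal gene touched a domain at all, while 4 DNA damage genes did. Counts this small are given as description only.

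The central comparison asks what 7 days of EZH2 inhibition did to H3K36me2 in the domains. In DMSO the domains had 2.57 and 2.59 times the library mean, and with EPZ-6438 they had 2.21 and 2.34. Both inhibitor libraries lay below both DMSO libraries. The difference was -0.18 on the log2 scale, an 11.8% lower level, with a spread within arms of 0.04 (SD) and a range from -0.23 to -0.14 over the 4 possible pairs. The exact two-sided permutation test gave p = 0.333, the smallest value that 2 libraries against 2 allow. The 2 untreated H3K36me2 libraries, at 2.87 and 2.55, differed by 0.17 on the same scale, nearly as much as the arms. The size depends on the scaling, and the spike-in scale did not resolve a sign. Divided by the library median over 10 kb bins instead, the difference was -0.31. On the deposited spike-in scale it was 0.02, where the median over all H3K36me2 peaks also moved, from -0.10 to 0.10. The domains had 874 and 581 on that scale in DMSO and 940 and 557 with inhibitor. The arms thus overlapped, and replicates differed by more than the arms. Relative to shorter H3K36me2 peaks, a ratio that no scaling of a library alters, the domains stood at 1.31 and 1.34 in DMSO and 1.22 and 1.30 with inhibitor. That difference was -0.07 (exact permutation p = 0.333, pairs from -0.12 to -0.01). It was -0.04 against shorter peaks of 20 kb or more, where the arms overlapped (exact permutation p = 0.667), and -0.12 as a median over domains. Without inhibitor replicate 1 it was -0.03 and without inhibitor replicate 2 it was -0.11.

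The lower domain level stood beside a higher level elsewhere, as the division by the library mean requires. Windows outside all H3K36me2 peaks had 0.471 and 0.479 times the library mean in DMSO and 0.567 and 0.556 with inhibitor, and shorter peaks went from 1.96 and 1.94 to 1.81 and 1.80. The domains held 16.7% and 16.9% of window reads on chromosomes 1 to 19 in DMSO, and 14.4% and 15.2% with inhibitor. Flank levels spread more between replicates, at 0.870 and 1.03 in DMSO and 0.818 and 1.00 with inhibitor, and the ratio of domain to flank overlapped between arms. Its difference was -0.12 (exact permutation p = 0.667), with -0.13 and -0.11 between same-numbered libraries. The ratio was higher in replicate 1 of both arms, at 2.95 against 2.52 in DMSO and 2.70 against 2.34 with inhibitor. Leaving out 1 library therefore mixes this offset between replicates into the difference. The difference was -0.0027 without DMSO replicate 1 and -0.23 without DMSO replicate 2, -0.22 without inhibitor replicate 1 and -0.012 without inhibitor replicate 2. With all flank windows kept, those in other H3K36me2 peaks included, it was -0.05 (exact permutation p = 0.333). In each of the 4 libraries, all 1016 domains exceeded both their own flank and the library mean. Domains and flanks were set by H3K36me2 peaks of the same cell line, so this order was largely fixed by the choice. The lowest domain stood at 1.63 and 1.43 times the library mean in the DMSO libraries and at 1.39 and 1.15 with inhibitor.

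**Figure D3:**
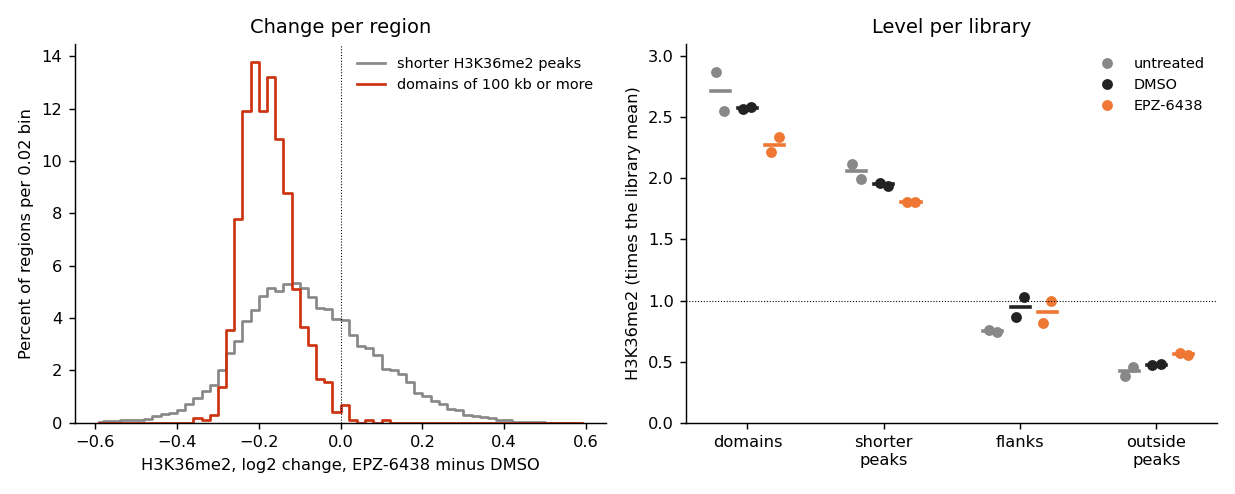
Left, distribution of the H3K36me2 log2 change (x axis, EPZ-6438 minus DMSO, limma) as percent of regions per bin of 0.02 for the 1016 domains and the 39622 shorter peaks; right, H3K36me2 level (y axis, times the library mean) in each library by kind of region, points being libraries and bars means. The domains centre at a median of -0.18 and the 2 inhibitor libraries lie below the 2 DMSO libraries in domains and shorter peaks, and above them outside peaks.

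Region by region, the fit with limma over all 40638 peaks called no domain at a Benjamini-Hochberg adjusted p under 0.05, and no peak elsewhere (percent called 0 in each direction). The smallest adjusted p was 0.303. An unadjusted p under 0.05 was reached by 313 domains (30.8%), against 16.3% of all peaks. This order depended on the fit: centred on the median over peaks it was 1.57% of domains against 11.6% of all peaks, and with medians over windows 8.27% against 11.2%. It was 0.689% against 7.43% without DMSO replicate 1, 0.689% against 7.05% without DMSO replicate 2, 2.56% against 13.5% without inhibitor replicate 1 and 20.4% against 12.4% without inhibitor replicate 2. limma-voom on the recovered reads likewise called none, with 795 domains (78.2%) and 21.1% of all peaks at an unadjusted p under 0.05. Direction relative to the library mean was nearly uniform. On the spike-in scale, where the pooled domain levels of the arms overlapped, the median over domains was 0.02. On the first of these scales 1006 of 1016 domains (99.0%) had a log2 change below 0, against 71.5% of all peaks. The domains had a median of -0.18 and percentiles (10th and 90th) of -0.25 and -0.10. All peaks had a median of -0.10 and percentiles of -0.27 and 0.13. In 880 domains (86.6%) both inhibitor libraries were below both DMSO libraries, where 41.3% of all peaks showed that order. None had both above, against 11.3% of all peaks. Domains average over more windows than shorter peaks (median length 133.5 against 9.5 kb). The part of counting noise in these shares was not tested. The median SE was 0.08 for domains and 0.10 over all peaks tested.

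The 5 highest values of the change, none of them called, were at Cib4 and Fam166c (0.11 ± 0.16, SE), Rgs12 and Dok7 (0.07 ± 0.13), Rxfp2 (0.02 ± 0.12), Chst15 and Cpxm2 (0.02 ± 0.08), and Tent5c (0.01 ± 0.10). The first of these had 2.63 and 3.16 times the library mean in DMSO and 2.73 and 3.56 with inhibitor, so the replicates of each arm differed by more than the arms. All 5 had untreated H3K36me3 at or below 2.03 times the library mean, and 4 of them had it between 1.25 and 1.30. The 5 lowest values were at Agap3 and the homeobox gene Gbx1 (-0.35 ± 0.10), the nucleoredoxin gene Nxn (-0.34 ± 0.09), the inositol kinase gene Itpk1 (-0.32 ± 0.11), Dip2b (-0.31 ± 0.08) and the endoglin gene Eng (-0.31 ± 0.11). Each of these had an adjusted p of 0.303. At Dip2b the levels were 2.42 in both DMSO libraries and 1.88 and 1.99 with inhibitor, without overlap. Untreated H3K36me3 in the 5 lowest ranged from 2.65 to 5.14. Across all 1016 domains, the H3K36me2 change had a Spearman coefficient of -0.45 with untreated H3K36me3, -0.44 with H3K27me1 and 0.35 with H3K27me3, and -0.09 with length. The change comes from the 4 treated H3K36me2 libraries and the other marks from untreated libraries, all over the same 1016 regions, and the coefficients are a description.

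Among the listed genes, the domain at Dnmt3a had 2.77 and 2.79 times the library mean of H3K36me2 in DMSO and 2.41 and 2.52 with inhibitor. At Dnmt3b the values were 2.90 and 2.91 against 2.37 and 2.57. The Kdm2b domain went from 2.55 and 2.54 to 2.15 and 2.24, and the Ezh1 domain from 2.21 and 2.24 to 1.80 and 1.98. The Esrrb domain had 2.59 and 2.51, then 2.26 and 2.30. In each of these 5 domains both inhibitor libraries were below both DMSO libraries, where 86.6% of all domains showed that order. None of the 5 passed the adjusted test.

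Domains were then divided by their H3K27me3 peak cover, a comparison added after the data were seen. The 432 domains at least 50% inside H3K27me3 peaks had median length of 133.5 kb, and the 584 others 133.75 kb. The first class had higher untreated H3K27me3, which follows from its choice, at 2.80 ± 0.15 (SD, n = 2) against 1.19 ± 0.06 times the library mean. Its H3K36me3 was 2.01 and 2.15, below the 2.60 and 2.76 of the other class, and its H3K27me1 was 1.28 and 1.21, below 1.71 and 1.52. H3K27me2 overlapped, at 1.95 and 1.77 against 2.11 and 1.81. H3K36me2 in DMSO was 2.68 in both libraries of the first class and 2.48 and 2.52 in the second, and with inhibitor 2.34 and 2.47 against 2.11 and 2.24. The changes were -0.16 and -0.20, respectively. The ratio of the first class to the second was 1.08 and 1.07 in DMSO and 1.11 in both inhibitor libraries, a difference of 0.04 (exact permutation p = 0.333) with all 4 pairs above 0. As percentages, H3K36me2 with inhibitor was 10.3% lower in the first class and 13.0% lower in the second.

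H3K27me3 itself differed between arms in opposite directions in the 2 classes when set against the library mean. The classes were cut on untreated peaks of this same mark. A more even spread of the remaining reads over the genome would by itself give opposite signs, and its part was not tested. The first class had 2.89 and 2.91 in DMSO and 2.47 and 2.33 with inhibitor, a difference of -0.28 (exact permutation p = 0.333). The second had 1.34 and 1.36, then 1.95 and 1.81, a difference of 0.48 (exact permutation p = 0.333). Over all domains the value was 2.00 and 2.03 in DMSO and 2.17 and 2.03 with inhibitor, a difference of 0.06 (exact permutation p = 0.333). It was 0.14 as a median over domains, 0.01 without inhibitor replicate 1 and 0.11 without inhibitor replicate 2, and over all windows, spaced every 500 bp, that lay wholly inside the peaks the arms overlapped (exact permutation p = 0.667). Relative to their flanks the domains went from 2.25 and 2.19 to 1.45 and 1.26, a difference of -0.72 (exact permutation p = 0.333), while the flank level itself went from 0.891 and 0.926 to 1.50 and 1.61. The 10th and 90th percentiles over domains drew together, from 0.726 and 3.48 to 1.32 and 2.80. All of these are shares of what remained: on the deposited spike-in scale the log2 difference of H3K27me3 over the domains was -9.01. The inhibitor libraries had 0.860 and 1.44 reads per domain window, against 17.3 and 22.6 in DMSO.

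All 1016 domains passed the filter of 10 reads per library for the H3K27me3 fit, in which 239 domains (23.5%) were higher relative to the library mean at a limma adjusted p under 0.05 and 70 (6.89%) lower. Among all 12836 peaks tested, 26.2% were called higher and 15% lower. The filter also counted the shallow inhibitor libraries, and only 11820 of 39622 shorter peaks passed it. Short peaks could pass only with enough reads left with inhibitor, so these shares are not an even background for the domains. Of the 239, 236 were in the class with less H3K27me3 peak cover, and of the 70, 69 were in the class with more. As the classes were cut on the same mark, this split is a description and not a separate result about the domains. The 4 domains called against the pattern of their class hold Skor1 (higher, 1.74 ± 0.20, SE), Sim2 and Cldn14 (1.17), Sema4d (0.57) and Ezh1 (lower, -0.73). They are named after their values were seen. Their H3K27me3 peak cover was 69.3%, 59.1%, 50.3% and 44.0%, in that order, so Sema4d lay at the 50% cut. Untreated H3K27me3 was 1.93 times the library mean at Sema4d and 2.53 at Ezh1. The classes with more and with less cover averaged 2.80 and 1.19. At the Skor1 domain H3K27me3 was 3.36 and 3.32 times the library mean in DMSO and 9.98 and 12.7 with inhibitor. The highest value with inhibitor, 12.3 and 20.6 against 8.75 and 9.78 in DMSO, was at the domain of Gnb1l and the T-box gene Tbx1 at chr16:18534001-18649500, which was not called (adjusted p = 0.0645). The calls rest on the scale, the summary over windows, the filter and single libraries. On the spike-in scale 0 domains were called higher and 1016 lower, and with the median over the windows of a peak 5 were higher and 29 lower. In the inhibitor libraries 73.1% and 61.2% of windows on chromosomes 1 to 19 held 0 reads. A median over windows can take few values there and measures the change only coarsely. Centred on the median over peaks, 231 were called higher and 119 lower. With no filter on low peaks limma called none of the domains, and each library left out changed the counts. They were 92 higher and 0 lower without DMSO replicate 1, 102 and 2 without DMSO replicate 2, 316 and 210 without inhibitor replicate 1, and 368 and 133 without inhibitor replicate 2.

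**Figure D4:**
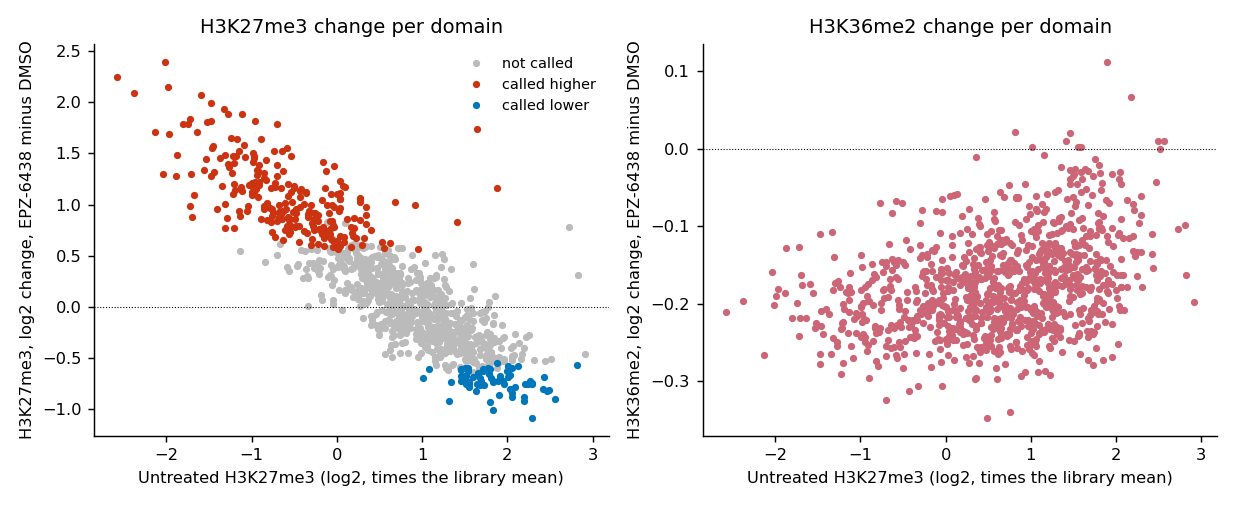
Log2 change with EPZ-6438 against DMSO (y axes, relative to the library mean) of H3K27me3 (left, coloured by limma call) and H3K36me2 (right) in each of the 1016 domains against untreated H3K27me3 (x axes, log2 of times the library mean). Domains with little untreated H3K27me3 lie above 0 in the left panel and most of those with much lie below it. For H3K36me2, on the right, 1006 of 1016 domains (99.0%) lie below 0, against 71.5% of all H3K36me2 peaks.

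Inside domains, 1672 protein-coding gene starts were found, of which 1341 lay at least 10 kb from the edge. In the 1 kb window of these starts H3K36me2 was 0.805 and 0.809 of the level of the gene's own domain in DMSO. With inhibitor it was 0.780 and 0.807, which overlaps DMSO, a difference of -0.02 on the log2 scale (exact permutation p = 0.667) that was 0.00013 without inhibitor replicate 1 and -0.049 without inhibitor replicate 2. H3K36me3 was at 0.575 ± 0.016 (SD, n = 2) of its domain level and H3K27me2 at 0.749 ± 0.020. Pooled over these starts, H3K27me3 was at 1.67 ± 0.05 of the domain level in DMSO. This mean does not describe each start: 659 and 684 of the 1341 starts lay below their own domain in the 2 DMSO libraries, and 768 and 748 in untreated cells.

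CpG content divided the starts. The 355 starts in the top quartile, with 26 or more CG in the 300 bases of the promoter window, had H3K36me2 of 0.589 ± 0.012 of their domain in DMSO and 0.563 ± 0.047 with inhibitor. The 354 starts in the bottom quartile, with 7 or fewer, had 1.14 ± 0.01 and 1.16 ± 0.003, above their domain. The dip at CpG-rich starts was narrow: 1 kb into the gene H3K36me2 was already at 0.844 and 0.851 in DMSO. It was not particular to H3K36me2. Untreated H3K27me2 was at 0.652 ± 0.030 of its domain at CpG-rich and 0.999 ± 0.007 at CpG-poor starts. Untreated H3K36me3 was at 0.504 ± 0.025 and 0.746 ± 0.003, respectively. H3K27me1 overlapped, at 0.927 and 0.529 against 0.885 and 0.856. The pooled H3K27me3 level in DMSO was 1.98 ± 0.08 of the domain for CpG-rich and 1.58 ± 0.02 for CpG-poor starts. Untreated cells did not show that order, with 1.43 ± 0.10 and 1.49 ± 0.0075, respectively. Of the 355 CpG-rich starts, however, 175 and 188 lay below their own domain in the DMSO libraries and 230 and 213 in the untreated ones. Of the 354 CpG-poor starts, 128 lay below it in each DMSO library, and 147 and 145 in the untreated ones. The ratio of H3K36me2 at CpG-rich to CpG-poor starts was 0.503 and 0.527 in DMSO and 0.457 and 0.516 with inhibitor, a difference of -0.08 (exact permutation p = 0.667) that was 0.0041 without inhibitor replicate 1 and -0.17 without inhibitor replicate 2. Windows rich in CG differ in base composition, and its part in ChIP recovery was not tested.

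Each of the 4 promoters printed above has its place in this range. At Hdac4, the gene of a class IIa histone deacetylase, the start window had 0.163 and 0.157 of its domain in DMSO and 0.171 and 0.253 with inhibitor, from 7 to 15 reads a library. The other untreated marks were below their domain there too. H3K27me1 was at 0.625 and 0.169, H3K27me2 at 0.148 and 0.052, H3K27me3 at 0.132 and 0, and H3K36me3 at 0.488 and 0.278. The platelet receptor gene Pear1 has a similar number of CG, yet its start had 1.56 and 1.04 in DMSO and 1.32 and 1.26 with inhibitor. The start of Tpcn2, a lysosomal cation channel gene, had 0.310 and 0.260 in DMSO and 0.478 and 0.351 with inhibitor despite holding 6 CG, and lies in a domain of 403 kb. Its printed window opens with a CACT repeat, and H3K27me3 there was 0.279 and 0.0949 of the domain in DMSO. Untreated H3K27me1 was at 0.900 and 0.609 there, H3K27me2 at 0.226 and 0.189, and H3K36me3 at 0.274 and 0.396. The start of Serpinf1, which encodes a secreted serpin, had 1.68 and 2.31 in DMSO and 1.53 and 1.82 with inhibitor. These 4 are the extremes among the 355 CpG-rich and 354 CpG-poor starts. They were drawn from domains averaging at least 20 H3K36me2 reads per window in DMSO, a limit that removed 0 of these starts. They had from 7 to 136 reads in 1 window, and single starts carry a wide counting error.

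**Figure D5:**
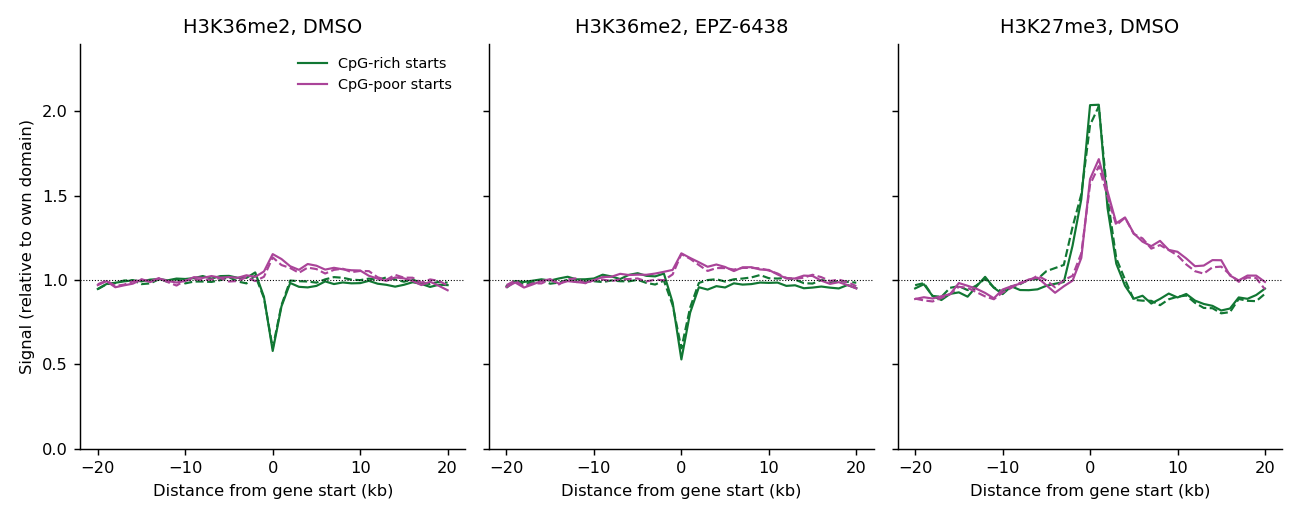
Signal relative to the gene's own domain (y axis) by distance from the gene start (x axis, kb, positive into the gene) for the 355 CpG-rich and 354 CpG-poor starts at least 10 kb inside a domain; solid and dashed lines are replicates 1 and 2, in panels for H3K36me2 after DMSO, H3K36me2 after EPZ-6438 and H3K27me3 after DMSO. H3K36me2 dips at CpG-rich starts (0.580 and 0.598 in DMSO, 0.530 and 0.596 with inhibitor) and does not at CpG-poor starts, while the pooled H3K27me3 is above 1 at both, with 175 and 188 of the 355 CpG-rich starts below their own domain.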

How the data were processed

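ChIP-seq signal of 18 libraries in 9 groups of 2 was analysed. The deposited tracks give log2(1 + scaled reads) in 1 kb windows every 500 bp, scaled by the authors with 1 factor per library. Judged by the values, this factor equalises depth in the untreated libraries; per the labels, the Drosophila chromatin served to normalize the others. The steps of the values returned whole read counts for 100% of windows (tolerance 0.02 of a read). The submitters' processing notes name Trim Galore 0.4.2, Bowtie2 2.2.6.2 and SICER and the builds mm10 and dm3, without their roles; how replicates were combined into the deposited peak lists is not given in the sources used here. E14 cells derive from another strain than the reference, which can affect mapping.

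From the recovered reads, the mean per non-overlapping window (at least 500 bp in the region) was divided by the library mean over chromosomes 1 to 19. The libraries averaged from 0.396 to 44.6 reads per window there. The authors' deposited peaks defined domains (100 kb or more); the score column deposited with each peak has no stated scale and was not used. limma 3.58.1 in R 4.3.3 was fitted on log2(level + 0.05), over all H3K36me2 peaks, or those with at least 10 reads per library for H3K27me3, with Benjamini-Hochberg adjustment. The fit was also run on simulated counts drawn independently for each library at a fixed dispersion. Such counts lack the shared deviations of same-numbered libraries, so they do not show how the fit behaves on these data. Single values were compared with exact permutation tests. Flanks are the windows within 50 kb outside H3K36me2 peaks. Genes and promoters are RefSeq GRCm38.p6; the promoter table matched 16457 of 20665 protein-coding genes, and chromosome 18 was not used for gene starts. Domains named are the 10 longest, 3 on either side of the threshold (given as ranges over all regions of that length), the extremes of each untreated mark, and the 5 highest and 5 lowest H3K36me2 changes. Genes named are up to 4 with the longest overlap and list members with at least 50% of their body in domains, summed over domains. A few named items and 1 gene list are not reported here. Members and lists were chosen with earlier results of these data known. Added after seeing the data were the comparisons of narrow gaps, H3K27me3 cover, coding against no-gene windows, CpG classes, the outer 10 kb and H3K27me3 against flanks, and leaving out windows at 0 in all libraries. Alternatives covered scale, centring, pseudocount, window rule, filter, test, flank, replicate block and single libraries.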

Additional observations from a re-analysis of the deposited data

How the results depend on the processing

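H3K36me2 over domains relative to the library mean kept its negative sign under the alternatives except on the spike-in scale (0.021), where the arms overlapped. On that scale H3K27me3 was at -9.01. Taken as a median over domains, untreated H3K27me1 relative to flanks was 0.13 in place of -0.11, H3K27me3 0.71 relative to the library mean and 1.69 relative to flanks, and H3K36me3 1.13 and -0.047. DMSO libraries gave 1.01 for H3K27me3 relative to the library mean and 1.45 for H3K36me2 relative to flanks; flanks of 20 kb gave -0.57 for H3K36me3. All annotated genes covered 68.8% of domain length. H3K36me2 at gene starts in DMSO relative to the domain, -0.31 on the log2 scale, was -0.15 over 3 windows and -0.36 for starts anywhere in a domain. Without 1 library, the change in coding against no-gene windows ranged from -0.055 to 0.037 (0.021 without DMSO replicate 2), at gene starts from -0.049 to 0.00013 and in the CpG ratio from -0.17 to 0.0041. The H3K27me3 domains called higher and lower numbered 0 and 1016 on the spike-in scale, 5 and 29 with medians over windows, 359 and 197 with limma-voom, 0 and 0 with no filter, and 231 and 119 centred on the median; leaving out 1 library gave 92 to 368 and 0 to 210. limma H3K36me2 calls were 0 under each alternative run, with 0 to 795 domains (0% to 78.2%, against 0% to 32.3% of all peaks) at an unadjusted p under 0.05. Causes were not tested. With the replicate block no H3K36me2 call was made and H3K27me3 calls were 241 and 67; same-numbered libraries deviated together (Pearson 0.46 over 40638 peaks for H3K36me2, 0.12 for H3K27me3), but with 2 pairs this is no proof of pairing.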
